A study of Danio rerio with 6 samples.

Results

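The stanniocalcin family of the zebrafish was described by 4 entries of the count table, which stand for 3 genes: stc1 and stc2b with 1 entry each, and stc2a with 2 entries, written stc2a and stc2a_1. They were found by name among 53709 entries. The related gene stc1l was not counted among them and is given separately. The family was chosen by the measured difference of stc2a_1 between ZnO and control libraries, known from an earlier reading of the table, so the values of the members are given as a description and not as evidence from a test. Of the 4 entries, 3 had enough counts for the fit across all entries, and stc2b did not.

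RNA came from the regrowing tail fin (caudal fin blastema) of male Danio rerio, taken 4 days after the fin was cut. Fish of the first group were kept for those days in 150 mL of water with 2 mg/L of zinc oxide particles labelled Pro-ZnO, which the series title describes as a green synthesis using propolis extract, and this group is called ZnO here. Control fish were kept in distilled water. The labels give 5 fish per group in triplicate, no strain and no age, and do not say whether a library holds 1 fish or several, so every p-value measures the spread between these samples only. Propolis extract alone and dissolved zinc alone were not given to any group, so what each contributes cannot be told apart from the effect of the particles.

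Stanniocalcins are secreted glycoproteins. They were first known as the hormone of the corpuscles of Stannius, glands on the kidney of bony fishes, which lowers the uptake of calcium from the water. Mammals make stanniocalcins in many tissues, where they act locally. Human STC1 and STC2 bind and inhibit the protease PAPP-A, which otherwise cuts insulin-like growth factor (Igf) binding proteins and so frees the growth factor. In human cells STC2 transcription is raised by low oxygen and by stress of the endoplasmic reticulum.

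Each group had 3 libraries, of 26624174 to 29340611 counts in ZnO and 28536840 to 31712994 counts in controls. Levels are CPM, counts per 1000000 counts of the library after TMM scaling (a method that lines up library compositions), and 1 count was worth 0.0316 to 0.0383 CPM. All 14 genes of a list of blastema markers were detected, among them the homeobox gene msx1b at 76.3 to 102 CPM in ZnO and 69.7 to 85.2 CPM in controls, and the fin fold structural gene and1 at 4852 to 5751 CPM in ZnO and 3414 to 5237 CPM in controls. Others had lower means in ZnO, such as the leptin gene lepb at 5.45 to 12.6 CPM in ZnO and 14.4 to 14.6 CPM in controls, and the gelatinase gene mmp9 at 141 to 189 CPM in ZnO and 224 to 321 CPM in controls. The median log2 fold change of the 14 was -0.17, with 7 positive. By edgeR 0 passed, against 2 higher and 5 lower at an unadjusted p under 0.05 and 2 lower by DESeq2. Of all tested entries, 0.428% passed by edgeR, 15.9% had an unadjusted p under 0.05 and 4.62% passed by DESeq2. Without ZnO 1, lepb passed by edgeR (adjusted p = 0.0281). In that fit 87 entries of the whole table passed as higher and 282 as lower, against 25 and 86 with all libraries. With any other library left out, lepb did not pass (edgeR adjusted p from 0.382 to 0.417). Transcript lengths of the entries were not used, so levels are compared between libraries and never between genes. In bulk tissue, fewer cells of a type and less RNA per cell cannot be told apart.

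Both entries of stc2a were higher in ZnO fins. The entry stc2a stood at 15.7, 18.8 and 17.8 CPM in ZnO libraries 1 to 3, against 8.84, 9.30 and 9.83 CPM in control libraries 1 to 3. Every ZnO library lay above every control, and the controls were close together. The mean level was 17.4 ± 1.59 CPM in ZnO and 9.32 ± 0.500 CPM in controls (SD, n = 3 each), a fold change of 1.87 and a log2 fold change of 0.90 ± 0.13 (SE). The values rest on 453 to 534 counts per ZnO library and 264 to 311 per control.

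The entry stc2a_1 stood at 17.7, 20.2 and 23.0 CPM in ZnO libraries 1 to 3, against 8.34, 9.40 and 6.45 CPM in control libraries 1 to 3. The groups did not overlap here either, and control 3, the highest control at the stc2a entry, was the lowest at stc2a_1. The mean level was 20.3 ± 2.66 CPM in ZnO and 8.07 ± 1.5 CPM in controls (SD, n = 3 each), a fold change of 2.52 and a log2 fold change of 1.33 ± 0.18 (SE). Counts were 511 to 689 per ZnO library and 204 to 267 per control.

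**Figure D1:**
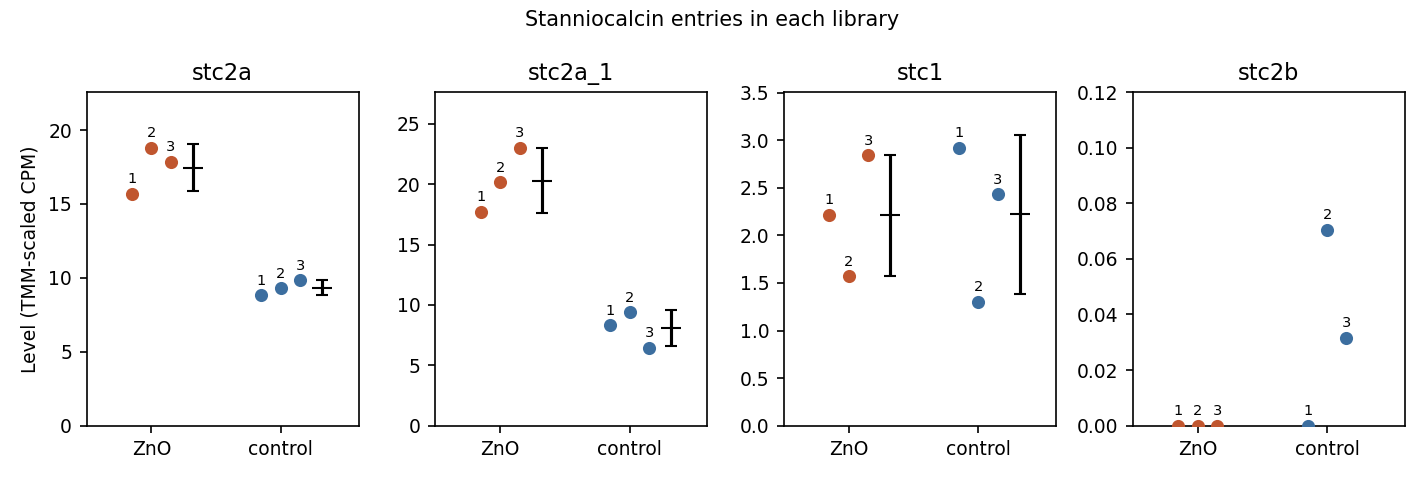
Level of each stanniocalcin entry in TMM-scaled CPM (vertical axis, a scale of its own in each panel) in ZnO and control libraries. Points are libraries with their replicate number, and the bar beside them is the mean with SD (n = 3), not drawn for stc2b with at most 2 counts per library. At stc2a and stc2a_1 all 3 ZnO points lie above all 3 control points, at stc1 the groups lie over each other.

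stc1 showed no such separation. Its level was 2.22, 1.57 and 2.84 CPM in ZnO libraries 1 to 3, against 2.92, 1.30 and 2.44 CPM in control libraries 1 to 3. The groups overlapped over nearly their whole range, with library 2 the lowest of each group. The mean was 2.21 ± 0.635 CPM in ZnO and 2.22 ± 0.831 CPM in controls (SD, n = 3 each), with a log2 fold change of -0.01 ± 0.35 (SE). The count per library was 41 to 85 in ZnO and 37 to 89 in controls. Exact Poisson intervals, which cover counting error only (95%), ran from 2.27 to 3.51 CPM in ZnO 3 and from 1.13 to 2.13 CPM in ZnO 2. In controls they ran from 2.35 to 3.60 CPM in control 1 and from 0.918 to 1.80 CPM in control 2. A fold change of stc1 of the size seen for stc2a lies more than 2 SE from its estimate. Changes within 2 SE of that estimate, in either direction, are within the error.

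stc2b was near the limit of detection. It had 0 counts in each ZnO library, and 0, 2 and 1 counts in control libraries 1 to 3. A count of 0 allows a level of up to 0.100 to 0.115 CPM in a single ZnO library (3 counts), and no fold change is given since both groups lie at or under that limit. At this depth a difference in stc2b was not detectable.

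In the edgeR quasi-likelihood test with Benjamini-Hochberg adjustment over 25962 entries, 2 of the 3 tested member entries passed the threshold of 0.05. Both were higher in ZnO, and both belong to 1 gene, stc2a, so they do not count as 2 genes. Of all tested entries, 0.428% passed in either direction and 0.0963% passed as higher. stc2a_1 had an adjusted p of 0.0327 and stc2a of 0.0418, while stc1 had 0.996. These p-values belong to the contrast by which the family was chosen and support nothing further. By unadjusted p, stc2a_1 was entry 39 and stc2a entry 56 of the 25962. Among the 25 entries that passed as higher, stc2a_1 had the 11th largest fold change and stc2a the 19th. At both stc2a entries, and at 22.5% of all tested entries, the groups did not overlap.

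Both calls ended when any library other than ZnO 1 was left out. So did most calls of the whole table. In those fits 0 to 4 entries passed as higher and 12 to 32 as lower, against 25 and 86 with all libraries. For stc2a_1 the edgeR adjusted p was 0.0243 without ZnO 1, and 0.0787 without ZnO 2, 0.128 without ZnO 3, 0.0899 without control 1, 0.0596 without control 2 and 0.0793 without control 3. For the stc2a entry it was 0.0298 without ZnO 1, 0.0951 without ZnO 2, 0.157 without ZnO 3, 0.111 without control 1, 0.124 without control 2 and 0.0992 without control 3. The log2 fold change itself stayed between 1.18 and 1.46 for stc2a_1 and between 0.83 and 0.96 for stc2a when any 1 library was left out. DESeq2, which called 4.62% of the same entries and 1.64% as higher, gave adjusted p-values of 5.3e-08 for stc2a_1 and 1.17e-05 for stc2a.

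**Figure D2:**
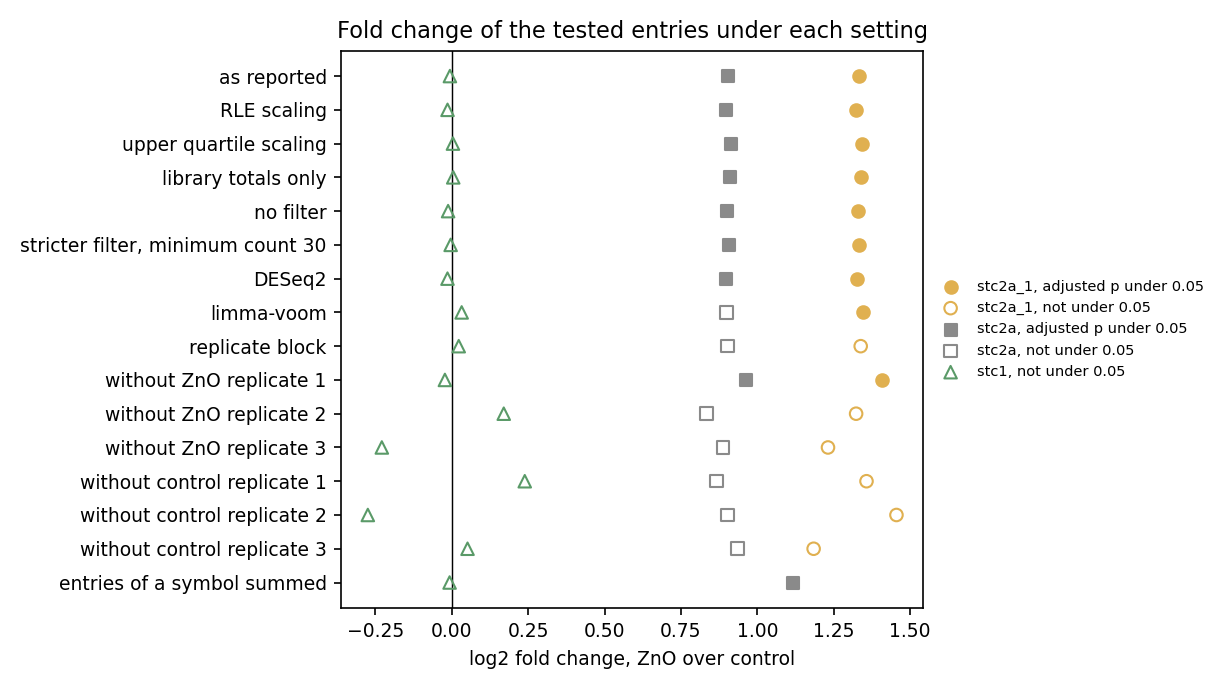
Log2 fold change of ZnO over control (horizontal axis) for stc2a_1, stc2a and stc1 as reported and under each other setting (rows). Filled points have an adjusted p under 0.05. The stc2a entries stay between 0.83 and 1.46 on the right in all rows, many of them open, and stc1 scatters on both sides of 0 between -0.27 and 0.24. In the lowest row the stc2a point is the sum of both entries.

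The 2 entries carry 1 gene symbol, and the sources used here do not say how they differ. If they are near-identical copies, reads could have been divided between them, so their sum was also followed. Together they held 33.4, 39.0 and 40.9 CPM in ZnO libraries 1 to 3, against 17.2, 18.7 and 16.3 CPM in control libraries 1 to 3. Relative to its mean, the sum was more even within the control group than stc2a_1 alone, but not more even than the stc2a entry alone. The sum averaged 37.8 ± 3.87 CPM in ZnO and 17.4 ± 1.22 CPM in controls (SD, n = 3 each). With entries of each symbol summed before the fit, stc2a had a fold change of 2.17 and a log2 fold change of 1.12 ± 0.12 (SE). Its edgeR adjusted p was 0.0259, where 0.365% of 21926 symbols passed, and it was number 10 by unadjusted p.

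The division between the entries also differed between libraries. stc2a_1 took 53.0%, 51.7% and 56.3% of the stc2a counts in ZnO libraries 1 to 3, against 48.6%, 50.3% and 39.6% in control libraries 1 to 3. The shares of all ZnO libraries were above those of all controls, by little except for control 3. The exact binomial interval (95%, counting error only) was 35.4% to 44.0% in control 3, below the intervals of the other 5 libraries, of which the lowest began at 44.2% in control 1. The mean share was 53.7% ± 2.38 in ZnO and 46.2% ± 5.73 in controls (SD, n = 3 each).

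**Figure D3:**
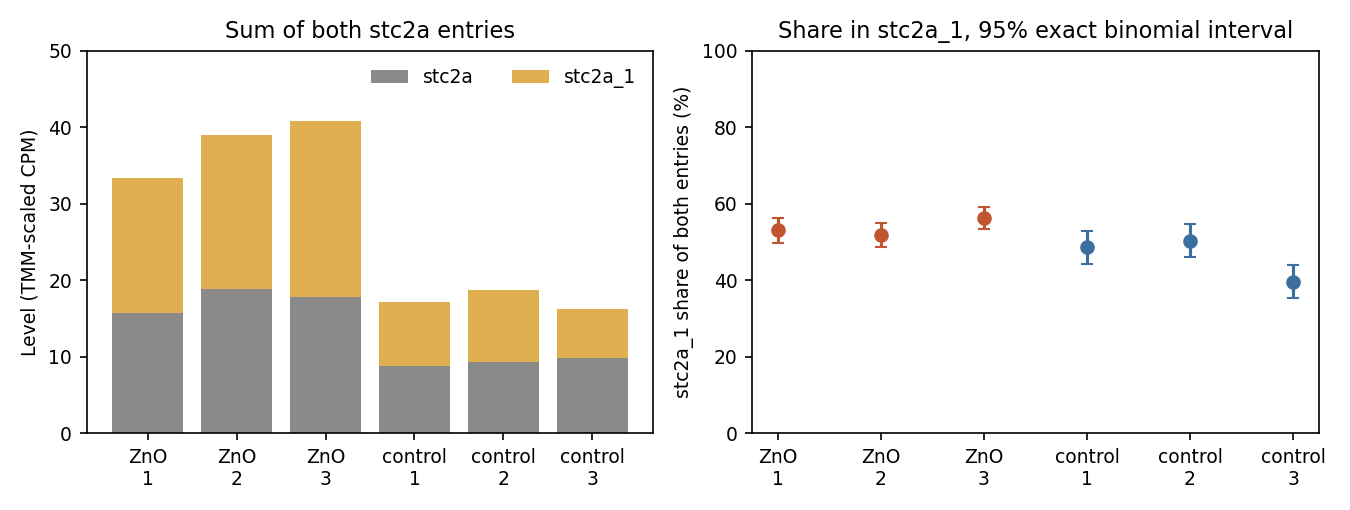
Left, level of stc2a and stc2a_1 stacked in each library (TMM-scaled CPM), ZnO libraries first. Right, share of the stc2a counts that fell in stc2a_1 (percent) with its 95% exact binomial interval, which covers counting error only. The sums reach 33.4 to 40.9 CPM in ZnO and 16.3 to 18.7 CPM in controls, and control 3 has the lowest share at 39.6%.

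Symbols with 2 entries were common in the table. Of 3178 symbols with 2 tested entries, 2396 had both entries on the same side of 0, and the median gap between the log2 fold changes of the 2 entries was 0.14. The gap at stc2a was 0.43, and 423 of the 3178 symbols had a wider one. Both entries passed the edgeR threshold at 6 symbols, stc2a among them, and 1 entry passed at another 18.

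The estimated spread between replicates differed within the family. edgeR's biological coefficient of variation estimates the replicate spread of an entry beyond counting noise. It is drawn towards the values of other entries, so it is not the entry's own spread alone. It was 0.145 for stc2a, 0.174 for stc2a_1 and 0.304 for stc1, against a median of 0.196 over all tested entries, whatever their level.

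The related gene stc1l, which the RefSeq gene table also lists under the older name stc1, has its own entry and was matched by its exact symbol. Its level was 0.451, 0.383 and 0.535 CPM in ZnO libraries 1 to 3, against 0.0985, 0.317 and 0.696 CPM in control libraries 1 to 3. With 3 to 22 counts per library the groups overlapped, and the log2 fold change was 0.29 ± 0.63 (SE), with an edgeR adjusted p = 0.867.

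Of the listed genes for Papp-a proteases, pappaa stood lower in ZnO, without passing the edgeR threshold. pappaa, which encodes a zebrafish Papp-a protease, was at 14.3, 11.5 and 6.95 CPM in ZnO libraries 1 to 3, against 25.4, 16.4 and 22.3 CPM in control libraries 1 to 3. All ZnO libraries were below all controls, and at 22.5% of all tested entries the groups did not overlap. For pappaa the log2 fold change was -0.97 ± 0.27 (SE), with an adjusted p of 0.161 by edgeR and 0.0186 by DESeq2. Its paralog pappab was low, at 0.498 ± 0.149 CPM in ZnO and 0.707 ± 0.0511 CPM in controls (SD, n = 3 each; edgeR adjusted p = 0.570). The groups did not overlap at pappab either.

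Of the 24 genes listed for the Papp-a and Igf axis, 20 were tested and none passed by edgeR. At an unadjusted p under 0.05, which 15.9% of all tested entries reached, 2 were higher and 5 lower. DESeq2, which called 4.62% of all tested entries in either direction, called 5 lower. The median log2 fold change of the 20 was 0.03, against 0.01 over all tested entries. Of the 20, 10 were positive and 10 negative. The 5 lower by DESeq2 were pappaa, igfbp1a, igfbp6b, igf2b and irs2b. The 2 higher at an unadjusted p under 0.05 were igfbp2b and insrb, with log2 fold changes of 0.33 and 0.38. igfbp1a, a binding protein gene known to respond to low oxygen, averaged 24.5 ± 5.33 CPM in ZnO and 82.1 ± 30.5 CPM in controls (SD, n = 3 each; edgeR adjusted p = 0.0693, and 0.03 without control 3). igf2b, a growth factor gene, averaged 23.2 ± 3.77 CPM in ZnO and 37.8 ± 2.65 CPM in controls (edgeR adjusted p = 0.0748, and 0.0366 without ZnO 1). With any library other than control 3 left out, igfbp1a had an edgeR adjusted p of 0.0727 to 0.227. For igf2b it was 0.159 to 0.2185 with any library other than ZnO 1 left out, and 0.1196 with entries of each symbol summed. The binding protein gene igfbp3 was at 41.3 ± 1.9 CPM in ZnO and 42.6 ± 4.71 CPM in controls, and igfbp5b at 89.1 ± 0.631 CPM in ZnO and 102 ± 4.31 CPM in controls, and neither passed.

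Counts of trpv6 and igfbp5a, genes of calcium-taking ionocytes, were few in this tissue. Ionocytes are the ion-transporting cells of fish skin and gill, and in zebrafish larvae those that take up calcium express the channel gene trpv6 and the binding protein gene igfbp5a. trpv6 had 1 to 9 counts in ZnO libraries and 4 or 5 in controls, and igfbp5a had 0 to 9 counts in ZnO and 1 or 2 in controls. Neither reached the fit, nor did their second entries. The second entry trpv6_1 had 0 to 3 counts in ZnO and 8 to 12 in controls, and igfbp5a_1 had 3 to 10 counts in ZnO and 3 to 14 in controls. Other genes did reach the fit, among them 7 of 11 ionocyte markers, and atp2b2 and slc8a1b of the calcium list. The ionocyte marker atp1a1a.1 was at 243 to 358.1 CPM in ZnO and 376.5 to 423.5 CPM in controls (edgeR adjusted p = 0.396). atp6v1aa was lower too, at 29.27 to 31.45 CPM in ZnO and 41.32 to 46.8 CPM in controls (edgeR adjusted p = 0.0682). The log2 fold changes of slc9a3.2 (-0.53) and ca15a (-0.10) were also negative. Other ionocyte markers went the other way, with positive log2 fold changes at slc12a10.2 (1.46), slc4a4b (0.59) and ca2 (0.52). Of the 7 tested, 3 were positive and 0 passed by edgeR, with a median log2 fold change of -0.10. DESeq2, which called 4.62% of all tested entries in either direction, called 1 lower.

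Of 23 calcium uptake and calcium hormone genes 11 were tested and none passed by edgeR (median log2 fold change 0.13). At an unadjusted p under 0.05, which 15.9% of all tested entries reached, 1 was higher and 1 lower. By DESeq2, which called 4.62% of all tested entries in either direction, 1 was lower. The lower one was cyp24a1, the enzyme that breaks down active vitamin D, at 1.56, 0.843 and 0.936 CPM in ZnO libraries 1 to 3 and at 4.83, 12.6 and 2.72 CPM in control libraries 1 to 3 (edgeR adjusted p = 0.123, DESeq2 6.22e-05). Its ZnO libraries all lay below the controls, among which control 2 was far the highest. At 22.5% of all tested entries the groups did not overlap. Of 14 phosphate transport genes 9 were tested, and 0 passed by edgeR or DESeq2, with 1 higher and 0 lower at an unadjusted edgeR p under 0.05 (median log2 fold change 0.19).

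A list of 35 hypoxia genes held targets and also genes of oxygen sensing and of the hypoxia-inducible factors, such as egln2, vhl and epas1a. Of the 35, 31 were tested, of which 2 rose and 1 fell by edgeR, while 3 were higher and 2 lower by DESeq2. Of all tested entries, edgeR called 0.428% and DESeq2 4.62% in either direction. At an unadjusted p under 0.05, which 15.9% of all tested entries reached, 9 were higher and 3 lower. egln2, which encodes an oxygen-sensing prolyl hydroxylase, rose to 7.52, 13.1 and 14.3 CPM in ZnO libraries 1 to 3, against 3.05, 3.52 and 4.17 CPM in control libraries 1 to 3 (log2 fold change 1.70 ± 0.26, SE; edgeR adjusted p = 0.0467). p4ha1b, a collagen prolyl hydroxylase subunit gene, rose to 34.7 ± 10.9 CPM in ZnO, against 12.1 ± 2.05 CPM in controls (SD, n = 3 each; edgeR adjusted p = 0.0496). pfkfb3, a regulator of glycolysis, fell to 9.33 ± 0.700 CPM in ZnO, against 17.2 ± 0.295 CPM in controls (edgeR adjusted p = 0.0368). Leaving out any single library other than ZnO 1 ended these calls too, with edgeR adjusted p-values of 0.0992 to 0.158 for egln2, 0.0951 to 0.172 for p4ha1b and 0.0814 to 0.154 for pfkfb3. The log2 fold changes stayed between 1.52 and 1.92 for egln2, between 1.26 and 1.72 for p4ha1b and between -0.95 and -0.83 for pfkfb3 with any 1 library left out. Of the genes that did not pass by edgeR, epas1a, which encodes a hypoxia-inducible factor subunit, averaged 8.66 ± 2.5 CPM in ZnO and 3.57 ± 0.373 CPM in controls (SD, n = 3 each), with an adjusted p of 0.0661 by edgeR (0.0298 without ZnO 1) and 2.35e-04 by DESeq2. With any library other than ZnO 1 left out, the edgeR adjusted p of epas1a was 0.133 to 0.194. The others higher at an unadjusted p under 0.05 were egln3, bnip3, lox, vhl, p4ha2 and bnip3lb, with log2 fold changes of 1.2, 0.85, 0.76, 0.59, 0.54 and 0.44, and the others lower were ddit4 (-0.92) and loxl2b (-0.43). The growth factor gene vegfaa was at 10.5 ± 0.642 CPM in ZnO and 10.7 ± 1.87 CPM in controls, and the glycolysis gene ldha at 59.1 ± 15.1 CPM in ZnO and 56.9 ± 6.39 CPM in controls, and neither passed. The median log2 fold change of the 31 was 0.09, with 19 positive and 12 negative.

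The unfolded protein and integrated stress response list had more lower than higher values. Of 31 genes 29 were tested, and 0 passed by edgeR. At an unadjusted p under 0.05, which 15.9% of all tested entries reached, 0 were higher and 10 lower. DESeq2, which called 4.62% of all tested entries in either direction, called 3 lower. The log2 fold change was below 0 for 25 of the 29, and its median was -0.27. atf4a, a transcription factor gene of the list, was at 483 ± 14.2 CPM in ZnO and 462 ± 16.4 CPM in controls (edgeR adjusted p = 0.829), and the chaperone gene hspa5 at 464 ± 84.1 CPM in ZnO and 680 ± 92.9 CPM in controls (edgeR adjusted p = 0.182; SD, n = 3 each). Other transcription factor genes listed, atf3, atf6, xbp1, atf4b and ddit3, had log2 fold changes of -0.38, -0.27, -0.17, -0.13 and -0.0078.

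**Figure D4:**
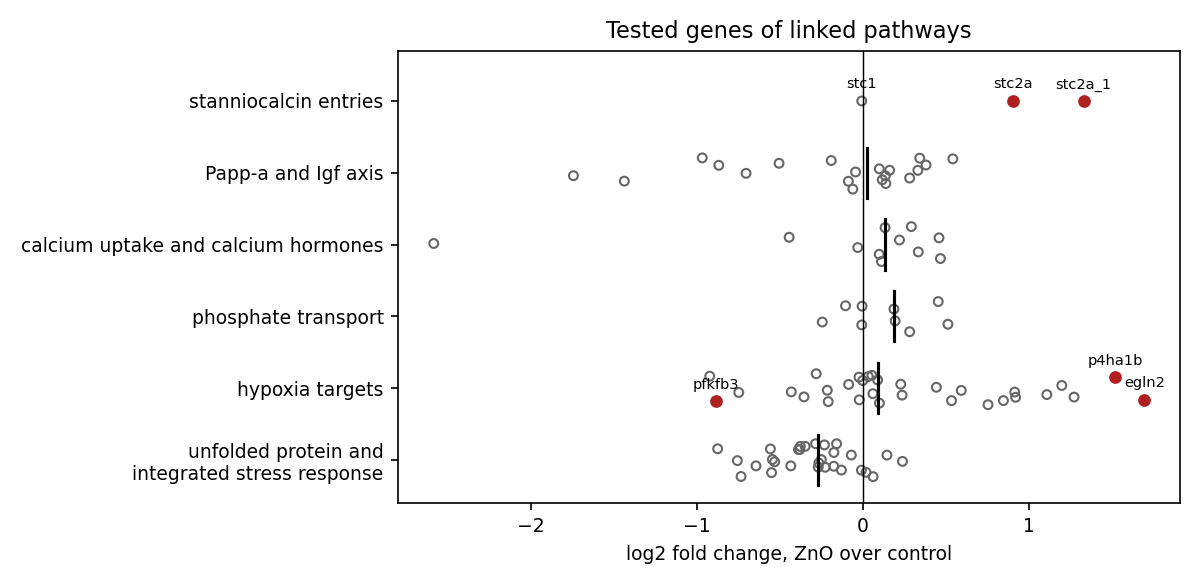
Log2 fold change of ZnO over control (horizontal axis) of the 3 tested stanniocalcin entries and of the tested genes of 5 lists (rows, points spread vertically for view). Filled points passed the edgeR threshold and carry names, as do the stanniocalcin entries, and vertical strokes are list medians. The medians run from -0.27 to 0.19, with stc2a at 0.90 and stc2a_1 at 1.33. The row of hypoxia targets also holds genes of oxygen sensing and of the hypoxia-inducible factors.

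The entries most like each member were ranked by Pearson's r of log2 CPM over the 6 libraries, among 17356 named entries of at least 1 CPM on average. For stc2a_1 these were retreg3, a receptor for turnover of the endoplasmic reticulum (r = 0.993), hmbox1a, a homeobox gene (0.990), rpz4 (0.990), flot1b, a membrane scaffold gene of the flotillin family (0.989), and ptger1a, a prostaglandin E receptor gene (0.987). Their own log2 fold changes, 0.26 to 1.06, were smaller than that of stc2a_1. For example, retreg3 was at 16.2 to 17.4 CPM in ZnO and 13.1 to 14.5 CPM in controls. None of the 5 passed the edgeR threshold, and DESeq2 called hmbox1a higher (adjusted p = 0.0127). 113 entries reached an r of 0.95. As the libraries lie in 2 groups at stc2a_1, r includes the gap between groups, and with each group centred on its own mean r was 0.987 for retreg3 and 0.869 to 0.952 for the other 4.

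For the stc2a entry the closest were eya4_1 (r = 0.997), vasna, a vasorin gene (0.997), and taok1b, a protein kinase gene (0.996). vasna was at 23.2, 27.5 and 26.2 CPM in ZnO libraries 1 to 3 and at 15.01, 15.7 and 17.2 CPM in control libraries 1 to 3 (log2 fold change 0.68, edgeR adjusted p = 0.0640, and 0.0487 without ZnO 1). With any library other than ZnO 1 left out, the edgeR adjusted p of vasna was 0.138 to 0.199. DESeq2 called vasna higher (adjusted p = 8.98e-04). For stc1 the closest were ahcyl2b (r = 0.996), scin_1, an entry of an actin-severing gene (0.986), and xpo4_1 (0.985). None of these differed between groups by more than 0.03 on the log2 scale. ahcyl2b was at 37.2 to 41.6 CPM in ZnO and 36.3 to 41.2 CPM in controls, and r takes no account of how far an entry varies. Names ending in _1 are single entries of a symbol with several entries, as at stc2a_1. The 2 stc2a entries had an r of 0.945 with each other and of 0.0514 after centring, and stc1 had an r of -0.0371 with stc2a_1 and of -0.0173 with stc2a. These values describe 6 libraries of similar depth from the same tissue.

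Markers of other cell types also had unequal levels in the groups. Over all tested entries, 0.428% passed by edgeR, 4.62% by DESeq2 and 15.9% at an unadjusted p under 0.05. All 6 erythrocyte markers were positive (median log2 fold change 1.65, 0 higher by edgeR, 4 at an unadjusted p under 0.05 and 3 by DESeq2), with summed levels of 139 to 368 CPM in ZnO and 24.6 to 139 CPM in controls. All 5 pigment cell markers were positive (median 0.95, 0 higher by edgeR, 5 at an unadjusted p under 0.05 and 3 by DESeq2), with sums of 56.3 to 128 CPM in ZnO and 39.1 to 56.6 CPM in controls. All 5 neutrophil markers were negative (median -1.77, 2 lower by edgeR, 5 at an unadjusted p under 0.05 and 3 by DESeq2), with sums of 43.1 to 120 CPM in ZnO and 294 to 378 CPM in controls. All 7 osteoblast markers were positive (median 0.33, 0 higher by edgeR, 4 at an unadjusted p under 0.05 and 2 by DESeq2), with sums of 6939 to 8437 CPM in ZnO and 5053 to 7786 CPM in controls. Of the tested markers of macrophages, keratinocytes, ionocytes, osteoclasts, endothelium, skeletal muscle, nerve and glia, and blastema, 0 passed by edgeR and 5 higher and 8 lower had an unadjusted p under 0.05. Their median log2 fold changes ran from -0.45 (skeletal muscle, 1 tested gene) to 0.27 (keratinocytes), and DESeq2 called 1 keratinocyte marker higher, and 1 ionocyte and 2 blastema markers lower. Of these lists, all 5 macrophage markers were negative (median -0.43, 2 at an unadjusted p under 0.05 and 0 by DESeq2). Macrophage sums were 289 to 421 CPM in ZnO and 376 to 607 CPM in controls. No marker of any of these lists was at 0 in all libraries, and their part in the stc2a result was not tested.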

How the data were processed

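The authors deposited raw, unscaled counts for each gene entry in 3 ZnO and 3 control libraries, from poly(A) RNA read as pairs of 150 bases per the labels' protocols. The submitters' processing notes name cutadapt, BWA, HTSeq, DESeq2 and GRCz11. The sources used here do not give versions, annotation, strand setting or the handling of reads with several matches (not stated). The counts of genes with several entries are therefore less certain.

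Entries were filtered with filterByExpr (minimum count 10), which left 25962 with 99.9% of counts, scaled by TMM and tested with edgeR's robust quasi-likelihood test, groups only, with Benjamini-Hochberg adjustment and a threshold of 0.05. The SE is the log2 fold change divided by the square root of the test's F. Log CPM used a prior count of 2. The procedure was tested on simulated data. Alternatives were other scalings and filters, DESeq2, limma-voom, leaving out each library in turn, a replicate block, and summing the entries of a symbol. Applying them to named genes that are no members was added after seeing the data.

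The members, gene lists and alternatives were chosen with earlier results of these data known. All 127 list genes were found, by symbol or through a single RefSeq synonym. Genes named are the members, stc1l, pappaa, pappab, igfbp5a and trpv6, up to 4 members per list past the threshold, and the 5 (stc2a_1) or 3 entries most like a member. Other list members were chosen after their values were seen. No library was a duplicate of another in its own group, and pairs across groups were not compared. Fits used edgeR 4.0.16, DESeq2 1.42.0 and limma 3.58.1 in R 4.3.3. Figures were drawn with matplotlib 3.10.9 and Python 3.11.15.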

Additional observations from a re-analysis of the deposited data

How the results depend on the processing

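The log2 fold change of stc2a_1 was positive in all 14 alternatives and that of stc2a in all 15. As every ZnO library lay above every control at both entries, these settings could hardly change the sign, which supports nothing further. The call of stc2a_1 ended with the replicate block (1.34, edgeR adjusted p = 0.0821), and that of stc2a with the block (0.90, 0.0837) and with limma-voom (0.90, 0.0515). With 1 library left out the log2 fold change ran from 1.18 to 1.46 for stc2a_1 and from 0.83 to 0.96 for stc2a, with the calls lost as given above. stc1, close to 0, turned positive with upper quartile scaling (0.0040), library totals only (0.0049), limma-voom (0.033) and the block (0.023), and ran from -0.27 to 0.24 with 1 library left out. It passed in no alternative (lowest adjusted p = 0.769). Of the other genes named, stc1l ran from -0.16 to 1.13 with 1 library left out, igfbp3 from -0.10 to 0.051, vegfaa from -0.16 to 0.10, ldha from -0.19 to 0.16, ahcyl2b from -0.046 to 0.043, scin_1 from -0.27 to 0.27 and xpo4_1 from -0.12 to 0.052. ahcyl2b was also just under 0 with RLE scaling (-3.76e-05) and DESeq2 (-1.84e-06), and scin_1 above 0 with limma-voom (0.013) and the block (0.0080). The call of egln2 ended with the minimum count of 30 (adjusted p = 0.0507), limma-voom (0.0718) and the block (0.0602), and that of pfkfb3 with the block (0.0837). The call of p4ha1b ended with RLE (0.0519) and upper quartile scaling (0.0502), the minimum count of 30 (0.0546), limma-voom (0.0718), the block (0.0858) and summed entries (0.0630). Entries called higher and lower numbered 25 and 86 by the edgeR test as described, 122 and 283 without a filter, 14 and 58 with a minimum count of 30, 425 and 774 by DESeq2, 8 and 47 by limma-voom, and 3 and 29 with the replicate block. With 1 library left out they ran from 0 to 87 higher and from 12 to 282 lower. The labels do not say that the replicate numbers pair the samples. Same-numbered libraries had an r of 0.0143, -0.049 and 0.0778 between their deviations from the group means. Of the 3 ZnO libraries, 1 correlated best with the control of its own number. With 3 libraries per group, these values cannot decide whether the numbers pair the samples. With a replicate spread of 0.304 (biological coefficient of variation) besides counting error at 37 to 89 counts per library, only large changes of stc1 would show. stc2b could not be assessed. The cause of these differences was not tested.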
